A study of Danio rerio with 4 samples.

Results

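The fos and jun genes on the array were compared between zebrafish larvae with a uhrf1 mutation and wildtype larvae. The probe sets were those annotated with 1 gene symbol that was jun, fosb or jund or began with fosa, fosl or junb. This gave 12 probe sets of 6 genes among 15502 tested: fosab with 4, fosl2 with 3, jun with 2, and fosl1b, junba and junbb with 1 each. No other fos or jun gene carried a probe set under this rule, so fosb, jund, fosaa and fosl1a were not analysed here.

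The study hybridised total RNA of larvae at 120 hours post fertilization to Affymetrix zebrafish arrays, using 2 samples of uhrf1 mutants (replicates 1 and 2) and 2 of wildtype larvae (replicates 1 and 3). The labels' growth protocol names the offspring of heterozygous uhrf1hi272+/- fish as the source for most experiments, and it also names a liver transgene, Tg(fabp10:hUHRF1-GFP), driven by the fabp10 promoter. No label places that transgene in these 4 samples, and none says how many larvae made up a sample. The age follows the source label and the design text, in hours, where a protocol line has days. No label ties the replicates to separate clutches. The p-values therefore cover the spread among these 4 samples alone, and that spread may be technical.

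AP-1 is a family of paired leucine zipper transcription factors. Fos proteins pair with Jun proteins, whereas Jun proteins can also pair with each other, and the pairs bind short palindromic DNA sites. In vertebrates several fos and jun genes, though not all, are switched on within minutes of growth factors, wounding, stress or cytokines. The Jun N-terminal kinases raise the activity of Jun protein by phosphorylation. An array measures the transcripts only.

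In all 12 probe sets both mutants read above both wildtype samples, and 5 of them passed the test, 1 from each gene except fosl1b. Over all probe sets 14.9% had both mutant arrays above both wildtype arrays, and 0.845% were called higher. The fos and jun genes were chosen with earlier results of these data known. Their excess over these shares is therefore not independent evidence. A call here means an adjusted p under 0.05 in limma, fitted to log2(intensity + 1) and adjusted by the Benjamini-Hochberg method over all 15502 probe sets. The median log2 change of the 12 probe sets was 0.95, against -0.04 for all probe sets, with a range from 0.19 to 1.66. Without adjustment 11 of the 12 had a p under 0.05, while 5.1% of all probe sets were higher at that level. With a pseudocount of 16 in place of 1 junba was the single call, while the calls over all probe sets went from 233 to 80. With the variance of each probe set taken alone limma's model called 0 of the 12 and 0 of all 15502. At an unadjusted p under 0.05 that model had 7 of the 12 and 1298 of all probe sets. The 12 probe sets are not independent, since probe sets of 1 gene measure the same transcripts. In whole larvae, more cells that express a gene and more RNA per cell cannot be told apart.

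**Figure D1:**
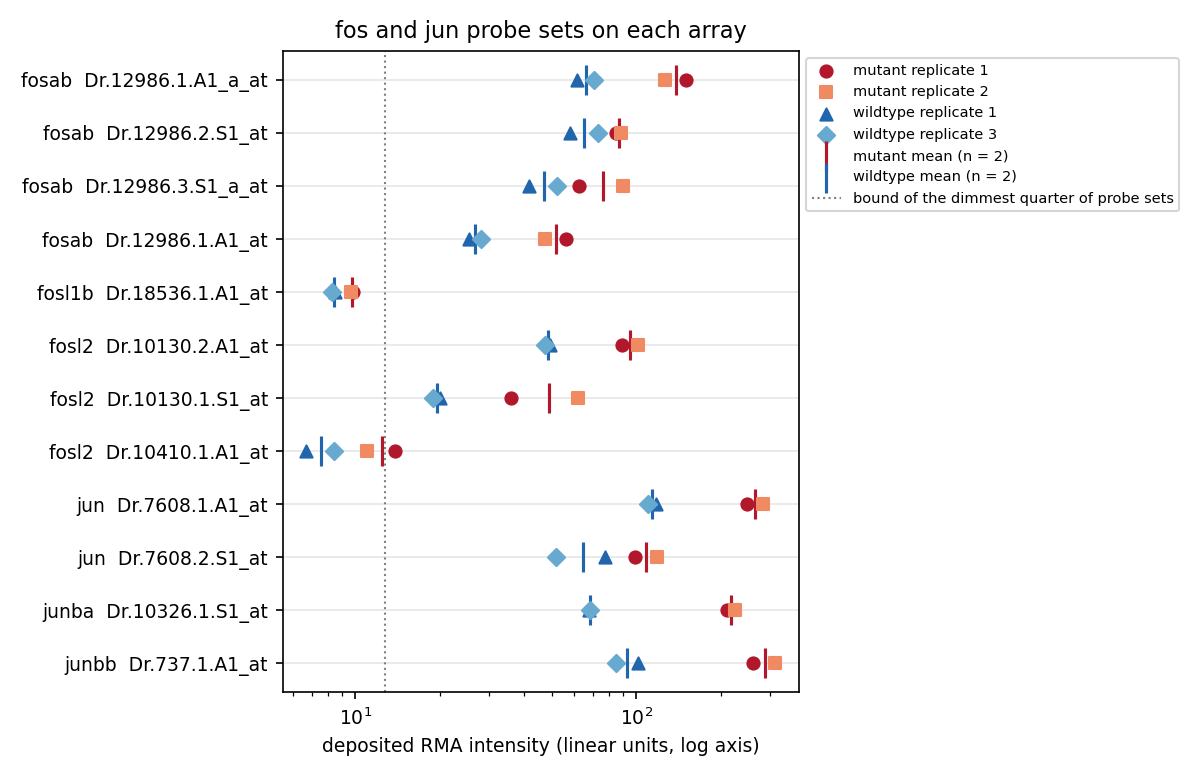
Deposited RMA intensity (log axis) of the 12 fos and jun probe sets on each of the 4 arrays; bars mark group means of 2 arrays and the dotted line bounds the dimmest 25% of probe sets. In every row both mutant symbols lie to the right of both wildtype symbols, with the widest gap for junba.

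The 2 junb genes, each with 1 probe set, had the largest estimated changes of the family. The 95% interval of 1 fosl2 probe set described below, from 0.60 to 1.87, included both junb estimates. In zebrafish junba and junbb are duplicates of the gene that mammals carry as JunB, a Jun protein that activates or restrains other AP-1 pairs depending on its partner. The junba probe set read 211 and 226 on the mutant arrays and 68.0 and 68.6 on the wildtype arrays. The groups were far apart, as the lower mutant array was 3.07 times the higher wildtype array. The ratio of group means was 3.20, and the log2 change was 1.66 ± 0.13 (SE; limma adjusted p = 0.0036, 95% interval from 1.34 to 1.98). This change ranked 73 in descending order among the 15502 probe sets.

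The junbb probe set read 261 and 312 on the mutant arrays and 101 and 84.7 on the wildtype arrays. Both mutant arrays were at least 2.58 times either wildtype array. Means were 287 ± 36.1 in mutants and 93.0 ± 11.6 in wildtype larvae (SD, n = 2 each), a ratio of 3.09. The log2 change was 1.62 ± 0.16 (SE; limma adjusted p = 0.010). With any 1 array left out the log2 change was 1.61 to 1.71 for junba and 1.49 to 1.74 for junbb. Such a fit has 1 array in 1 group. Its p-values, here and below, rest on the spread of the other group and on that of other probe sets.

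The changes of the 2 junb genes were compared within arrays. Within an array the log2 value of junba minus that of junbb was -0.31 and -0.47 in the mutants and -0.57 and -0.30 in the wildtype larvae. The mean difference changed by 0.05, or by -0.09 to 0.18 with 1 array left out, and the groups overlapped (exact permutation p = 1.0, two-sided). With 2 arrays against 2 this test cannot give a p below 0.33, so it could not have called a difference. Whether the probes of one junb gene also bind transcripts of the other was not tested.

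The gene jun encodes the protein known in mammals as c-Jun, the main substrate of the Jun N-terminal kinases and the strongest transactivator among the Jun proteins. The brighter of its 2 probe sets read 249 and 282 in mutants and 118 and 110.0 in wildtype larvae. The mutant arrays lay clear of the wildtype arrays, with a ratio of means of 2.33. The log2 change was 1.21 ± 0.14 (SE; limma adjusted p = 0.017), and the adjusted p became 0.070 without mutant replicate 2.

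The dimmer jun probe set read 99.0 and 118 in mutants and 77.7 and 51.7 in wildtype larvae. The wildtype arrays were 0.58 apart on the log2 scale, the widest wildtype spread of the 12 probe sets. Its log2 change of 0.76 ± 0.22 (SE; limma adjusted p = 0.24) did not pass, and its 95% interval ran from 0.22 to 1.31. Without wildtype replicate 1, the higher of the 2 wildtype arrays, the change was 1.05, and without wildtype replicate 3 it was 0.47.

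Within arrays the estimated change of jun was smaller than that of either junb gene, which the test cannot call with 2 arrays a group. The log2 value of jun minus that of junba was 0.24 and 0.32 in mutants and 0.78 and 0.67 in wildtype larvae, a change of -0.45. The difference jun minus junbb changed by -0.40, from 0.22 and 0.37 to -0.07 and -0.15. Neither pair of groups overlapped, and both gave the smallest possible exact permutation p, 0.33. Adjusted over the 6 pairs compared within the 2 families, that p was 0.5. Only the brighter jun probe set was used here, and the log2 changes of the 2 jun probe sets were themselves 0.45 apart. Whether the probe sets of these genes respond alike was not tested.

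Among fos genes, fosab and fosl2 each had 1 probe set that passed. The gene fosab is a zebrafish counterpart of mammalian c-Fos, the short-lived partner of Jun that is a standard marker of recent stimulation. The brightest of its 4 probe sets read 151 and 126 in mutants and 61.8 and 71.0 in wildtype larvae. Every mutant value was at least 1.78 times every wildtype value, and the ratio of means was 2.09. The log2 change was 1.05 ± 0.16 (SE; limma adjusted p = 0.042). Leaving out an array removed this call in 3 of 4 cases, at adjusted p-values of 0.13 without mutant replicate 1, 0.071 without mutant replicate 2 and 0.077 without wildtype replicate 1.

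The other 3 fosab probe sets were also higher on both mutant arrays, by smaller amounts. The dimmest, annotated to the same cDNA record as the brightest, read 56.5 and 47.3 in mutants and 25.4 and 28.0 in wildtype larvae. Its log2 change of 0.93 ± 0.15 (SE; limma adjusted p = 0.053) lay next to the threshold. The third brightest read 62.5 and 89.5 against 41.7 and 52.3, a log2 change of 0.67 ± 0.22 (SE), and its mutant arrays were 0.51 apart. The second brightest read 84.6 and 88.6 against 58.0 and 72.9, with the smallest change of the 4, 0.41 ± 0.16 (SE). Limma adjusted p-values were 0.29 and 0.39 for the last 2. Their sizes rest on single arrays: the first was 0.41 without mutant replicate 2, and the second 0.25 without wildtype replicate 1. Wildtype replicate 3 was above wildtype replicate 1 in all 4 fosab probe sets, whereas over the 12 probe sets this held in 6.

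The gene fosl2 encodes a Fos-related protein, known in mammals as Fra-2, that pairs with Jun but lacks the strong activating end of c-Fos. The brightest of its 3 probe sets read 89.2 and 102 in mutants and 49.5 and 47.3 in wildtype larvae. The groups did not overlap, and the ratio of means was 1.97. The log2 change was 0.96 ± 0.14 (SE; limma adjusted p = 0.038). With 1 array left out the adjusted p lay between 0.055 and 0.125, so the call rests on all 4 arrays.

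The other fosl2 probe sets had both mutants above both wildtype samples without passing. The middle one read 35.8 and 62.3 in mutants and 20.1 and 18.9 in wildtype larvae. It had the widest spread between mutant arrays of the 12 probe sets, 0.78 on the log2 scale, and its log2 change was 1.24 ± 0.26 (SE; limma adjusted p = 0.11). Without mutant replicate 1, the lower of the 2, the change was 1.63, and without mutant replicate 2 it was 0.85. The dimmest read 13.9 and 11.04 against 6.69 and 8.37, and its log2 change was 0.66 ± 0.18 (SE; limma adjusted p = 0.20). All but the first of these readings lay under 12.7, the bound of the dimmest 25% of probe sets, and with a pseudocount of 16 the change was 0.27.

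The changes of fosab and fosl2 were compared in the same way, with the same limit. Their within-array log2 difference was 0.75 and 0.31 in mutants and 0.31 and 0.58 in wildtype larvae, so the groups overlapped (exact permutation p = 1.0, two-sided). Its mean changed by 0.09, or by -0.13 to 0.31 with 1 array left out.

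The gene fosl1b is a duplicate of the one that mammals carry as Fra-1, a Fos-related protein of epithelia and wound edges. Its probe set read 9.80 and 9.67 in mutants and 8.48 and 8.29 in wildtype larvae. These readings all lay under 12.7, where RMA compresses differences, and with a pseudocount of 16 the change given next was 0.08. The mutant arrays were 1.14 times the wildtype arrays or more, and the log2 change of 0.19 ± 0.13 (SE; limma adjusted p = 0.66) did not pass, with a 95% interval from -0.12 to 0.51. Differences between fosl1b and the other fos genes are not interpretable at this signal.

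**Figure D2:**
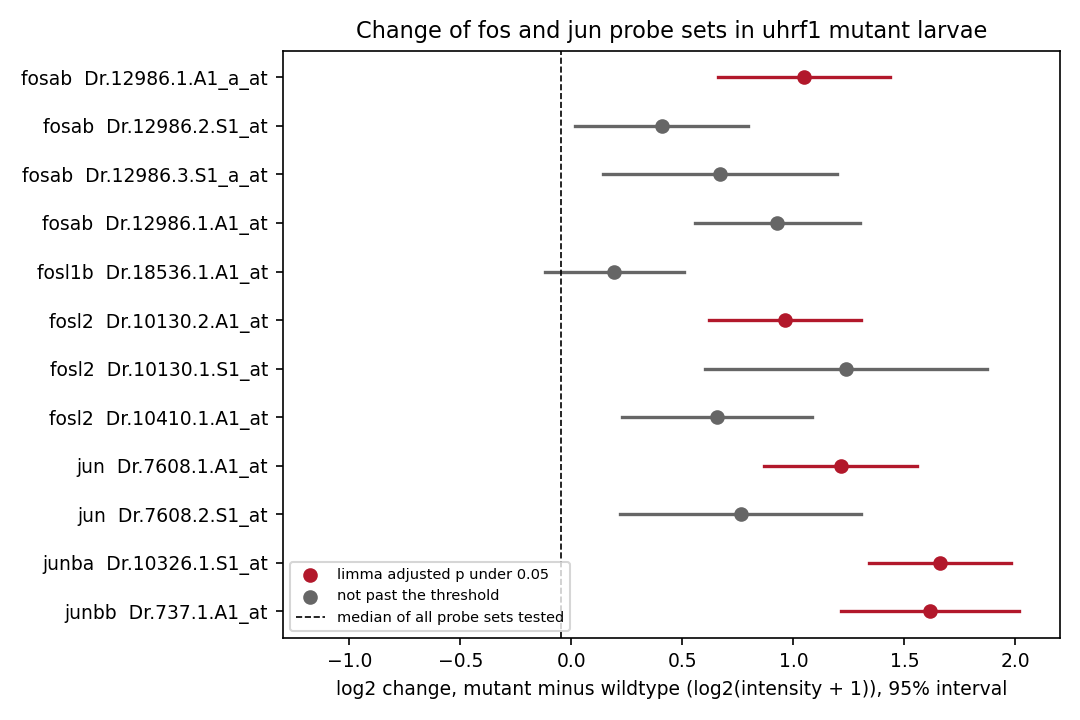
Log2 change (mutant minus wildtype, log2(intensity + 1)) of the 12 probe sets with 95% limma intervals; red marks an adjusted p under 0.05 and the dashed line is the median of all probe sets, -0.04. The interval of fosl1b alone reaches the dashed line, and the highest estimates are those of junba and junbb at 1.66 and 1.62.

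The probe sets of 1 gene differed in the size of their change. Their log2 changes spanned a range of 0.64 for fosab, 0.58 for fosl2 and 0.45 for jun, with every estimate above 0. In each of these 3 genes the probe set that passed was the one with the highest mean over the 4 arrays. That mean includes the mutant arrays, so a rise in mutants adds to it. The same probe sets had the highest wildtype mean, but for fosab by little, at 66.4 against 65.4. By family, the 4 jun probe sets had a median log2 change of 1.41 and 3 calls, and the 8 fos probe sets a median of 0.80 and 2 calls. The 2 probe sets with dim signal, that of fosl1b and the dimmest of fosl2, are both among the 8 fos probe sets, at log2 changes of 0.19 and 0.66. Whether the families differ was not tested.

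**Figure D3:**
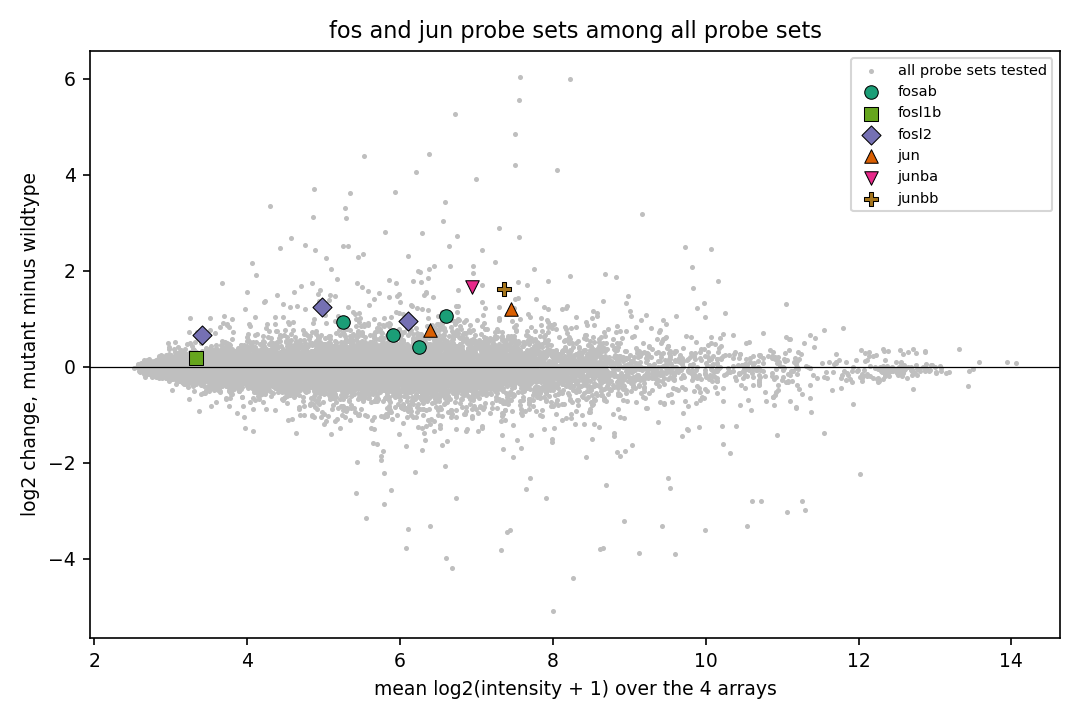
Log2 change against mean log2(intensity + 1) over the 4 arrays for all 15502 probe sets (grey) and the 12 fos and jun probe sets (coloured by gene). The fos and jun symbols all lie above 0, from 0.19 for fosl1b to 1.66 for junba, and several grey probe sets lie far above them.

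The whole array sets limits on these values. Median intensities of the 4 arrays ran from 29.4 to 31.5, and 233 probe sets (1.5%) were called, 131 higher and 102 lower. The 18 hybridisation controls, transcripts of other organisms added in fixed amounts, read lower on the mutant arrays, with a mean log2 change of -0.49. Single controls ranged from -0.82 to -0.06. With arrays scaled on them the median of all probe sets moved to 0.45, 5127 probe sets were called higher and 96 lower, and all 12 fos and jun probe sets were called higher. All changes here are relative to the bulk of each array, and the part of this shift in the calls was not tested. The brighter uhrf1 probe set read 41.1 and 26.3 in mutants and 47.4 and 41.5 in wildtype larvae (log2 change -0.42 ± 0.23, SE; limma adjusted p = 0.56). No source used here places its probes against the mutation, so it does not check the labels. Of 64 marker genes of 7 larval tissues and cell types, 59 had a wildtype mean above 12.7.

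Markers of 2 cell types that can express AP-1 genes strongly were set beside these values. In a list of myeloid markers 0 of 10 measured genes were called (1 at an unadjusted p under 0.05), with a median log2 change of 0.17, and their summed intensity was 520 and 591 in mutants and 486 and 369 in wildtype larvae. The myeloid marker with the smallest p was the chemokine receptor cxcr4b, at 18.8 and 14.8 against 11.1 and 12.7, a log2 change of 0.46 ± 0.17 (SE; limma adjusted p = 0.35). The next was lyz, the lysozyme of neutrophils and macrophages, at 210 and 268 against 194 and 102, which differed by 0.75 ± 0.31 (SE) in log2. Much of the summed intensity, and of its difference between the groups, came from lyz alone. Of the 10 myeloid markers 6 had both mutants above both wildtype samples and 1 had both below, beside 14.9% and 26.3% of all probe sets. Among the 6 was cebpa, which is also counted with the leucine zipper relatives below. The 2 shares are over all probe sets, not over 1 probe set a gene. Such a count was not particular to myeloid markers. In the muscle list 7 of 9 genes had both mutants above and 1 had both below, and in the epidermal list 3 and 5 of 13. How far the genes of the myeloid list are confined to myeloid cells in whole larvae was not tested, so their count and their sum may include other cells. The neutrophil peroxidase mpx, named after its values were seen, read 39.7 and 43.0 against 38.2 and 35.9. Among epidermal markers 0 of 13 were called (1 higher and 3 lower at an unadjusted p under 0.05), the median was -0.05, and the summed intensity was 17690 and 17454 against 20313 and 21799. The 2 with the smallest p were krt5, a keratin, and ppl, whose mammalian counterpart is a protein of the cornified envelope. The latter read 324 and 244 against 452 and 510.4. No intensity on the arrays was below 4.48, so a reading above 0 does not show that a marker was detected. In the myeloid list 3 of the 10 genes had a wildtype mean under 12.7, the bound of dim signal used above. One of these was cxcr4b, at a wildtype mean of 11.9. In the epidermal list 1 of the 13 genes had a wildtype mean under that bound. Other marker lists are given with the processing. Among them the hepatocyte list had 2 of 9 genes called higher and none lower, at a median log2 change of 0.04. Its genes went both ways, with 4 higher and 2 lower at an unadjusted p under 0.05. The lens and retina list had a median of -0.48. The part of any of these cell types in the AP-1 values was not tested.

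Genes related to AP-1 were taken from 5 lists, each gene represented by its probe set with the highest mean. The background for these counts was 1.03% of the 8793 named genes called higher and 0.967% called lower, with a median log2 change of -0.06. Without adjustment, 5.74% were higher and 8.96% lower at a p under 0.05.

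Of 18 measured relatives that share the leucine zipper fold, 2 rose, 16 did not pass and none fell; the median log2 change was 0.28. Without adjustment 5 were higher and none lower at a p under 0.05. The gene atf3, a stress-induced factor that can pair with Jun proteins, read 169 and 145 in mutants and 38.5 and 46.5 in wildtype larvae. It rose 3.69-fold, a log2 change of 1.86 ± 0.16 (SE; limma adjusted p = 0.0059). The gene atf5b, a factor of the cellular stress response, rose 2.98-fold, from 45.6 and 46.9 to 153 and 122 (limma adjusted p = 0.011). With any 1 array left out the log2 change was 1.73 to 1.99 for atf3 and 1.38 to 1.71 for atf5b. The acute-phase factor cebpb, named after its values were seen, had the next smallest p, at a log2 change of 0.94 ± 0.17 (SE; limma adjusted p = 0.071).

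Of 53 listed genes of the kinase cascades that lead to AP-1, 19 were measured. The only Jun N-terminal kinase among the 19 was mapk8b, named here for its class. In limma 0 of the 19 measured genes passed, and the median log2 change was 0.05. Without adjustment 3 were higher and none lower. The 2 with the smallest p were the p38 kinases mapk14a and mapk14b. They read 182 and 172 against 134 and 128, and 79.3 and 72.3 against 54.4 and 58.3, log2 changes of 0.43 ± 0.13 and 0.42 ± 0.14 (SE). The arrays do not measure phosphorylation.

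Of 52 other immediate-early response genes, those transcribed soon after stimulation, 4 rose, 48 did not pass and none fell; the median log2 change was 0.17. Without adjustment 15 were higher and 2 lower at a p under 0.05. The 4 that rose were atf3, socs3a and socs3b, of which the last 2 restrain cytokine signalling, and rgs2, a regulator of G protein signalling. The gene socs3a read 506 and 460 in mutants against 65.2 and 81.2 in wildtype larvae, a 6.60-fold ratio, and socs3b 151 and 150 against 40.0 and 35.6, a 3.98-fold ratio. Their limma adjusted p-values were 0.0011 and 0.0021. The gene rgs2 read 42.3 and 55.7 against 19.3 and 17.0, and its limma adjusted p of 0.026 became 0.069 without mutant replicate 2.

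The next 3 genes of this list were chosen after their values were seen, as examples of members that did not pass, and do not stand for the list. The zinc finger factor egr1 read 37.5 and 38.4 in mutants and 43.9 and 35.9 in wildtype larvae, for a log2 change of -0.07 ± 0.15 (SE). The nuclear receptor nr4a1 read 30.6 and 21.7 against 30.5 and 22.4, and its groups overlapped. By contrast ier2a read 132 and 134 against 91.8 and 75.9, a log2 change of 0.66 ± 0.15 (SE) that did not pass (limma adjusted p = 0.14). Whether egr1 and fosab differed in their change was not tested.

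Of 36 measured genes listed as AP-1 targets from other systems, 2 rose, 34 did not pass and none fell. The median log2 change was 0.19. The list was made with earlier results of these data known, and no source for its members is given here. Whether AP-1 acts on any of them in these larvae was not tested. The matrix metalloprotease gene mmp9 read 298 and 255 in mutants and 51.1 and 32.4 in wildtype larvae, a 6.63-fold ratio or a log2 change of 2.73 ± 0.23 (SE; limma adjusted p = 0.0053). The chemokine gene ccl19a.1, whose place on the list was not checked, rose 17.7-fold, to 914 and 1326 from 58.8 and 67.6 (limma adjusted p = 0.00067). Without adjustment this list had 10 higher and 3 lower genes at a p under 0.05. The lower ones included the epidermal marker krt5, at 1822 and 1612 against 2672 and 2943, a log2 change of -0.71 ± 0.14 (SE; limma adjusted p = 0.096). Of 11 measured inhibitors of AP-1 and genes of its degradation, 0 passed in limma (1 had an unadjusted p under 0.05), with a median log2 change of -0.06, or near the bulk of the array. The 2 with the smallest p were the kinase phosphatase gene dusp1, at 241 and 223 against 137 and 194, and jdp2b, a repressor that pairs with Jun, at 72.3 and 69.0 against 46.9 and 66.5.

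**Figure D4:**
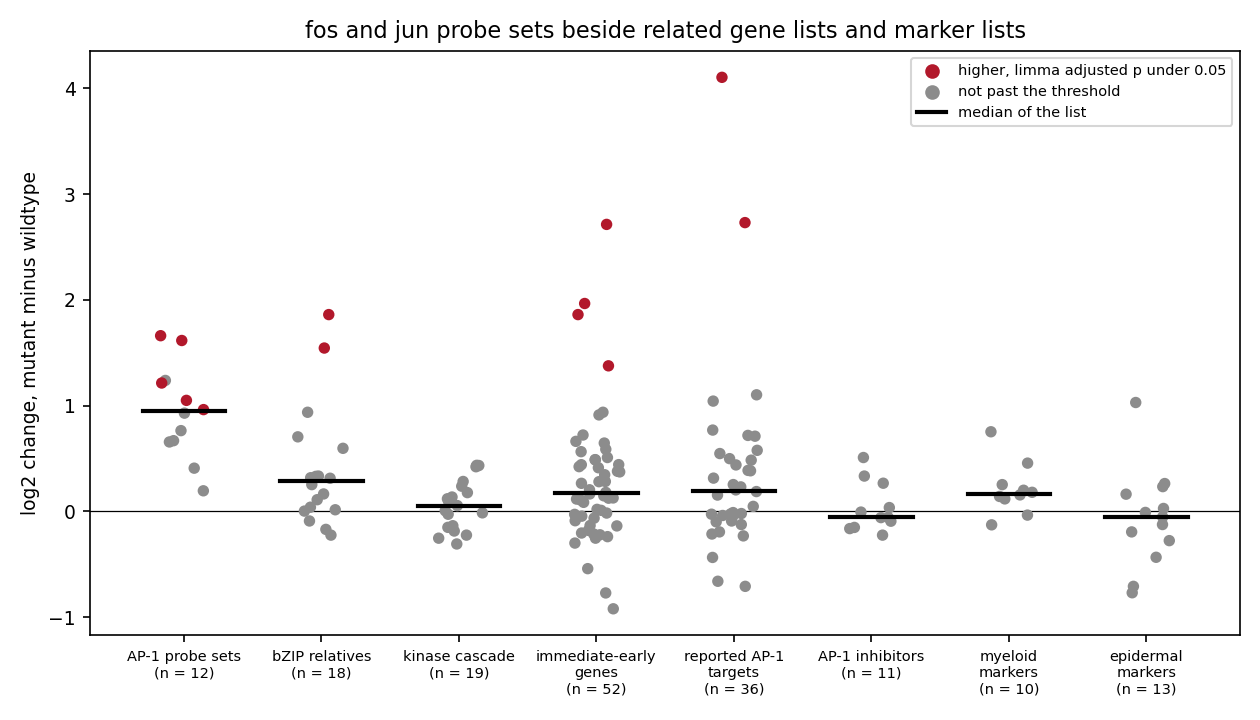
Log2 change (mutant minus wildtype) of the 12 fos and jun probe sets, of the genes of 5 related lists and of 2 of the 7 marker lists. Black bars are medians and red marks a limma adjusted p under 0.05. The median of the fos and jun probe sets is 0.95, and the medians of the other lists shown lie between -0.06 and 0.28. The 12 are probe sets, several of 1 gene, while each point of the other lists is a gene.

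Genes with the most similar values over the 4 arrays were sought among 8787 other named genes, by the root mean square difference of log2 values after each gene's wildtype mean was subtracted. Such closeness rests on 4 arrays in 2 groups, so mainly the size of the change is matched. For junba the nearest were gig2o, zgc:174888 and atf5b, at 0.14, 0.15 and 0.17 log2 units, and for junbb they were gig2o, fgg and pdia4, at 0.15, 0.15 and 0.16. For jun they were nfkbiab, which encodes an inhibitor of NF-kappaB, nmi and si:ch73-335l21.4, at 0.04, 0.04 and 0.07. For the called fosab probe set they were lima1a, pfkfb3 and zp3a.2, at 0.07, 0.08 and 0.09. For the called fosl2 probe set they were ehd1b, tars1 and si:ch211-244b2.4, at 0.03, 0.04 and 0.06. As an example, nfkbiab read 425 and 474 in mutants and 193 and 179 in wildtype larvae, for a log2 change of 1.27 ± 0.14 (SE) beside the 1.21 of jun.

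**Figure D5:**
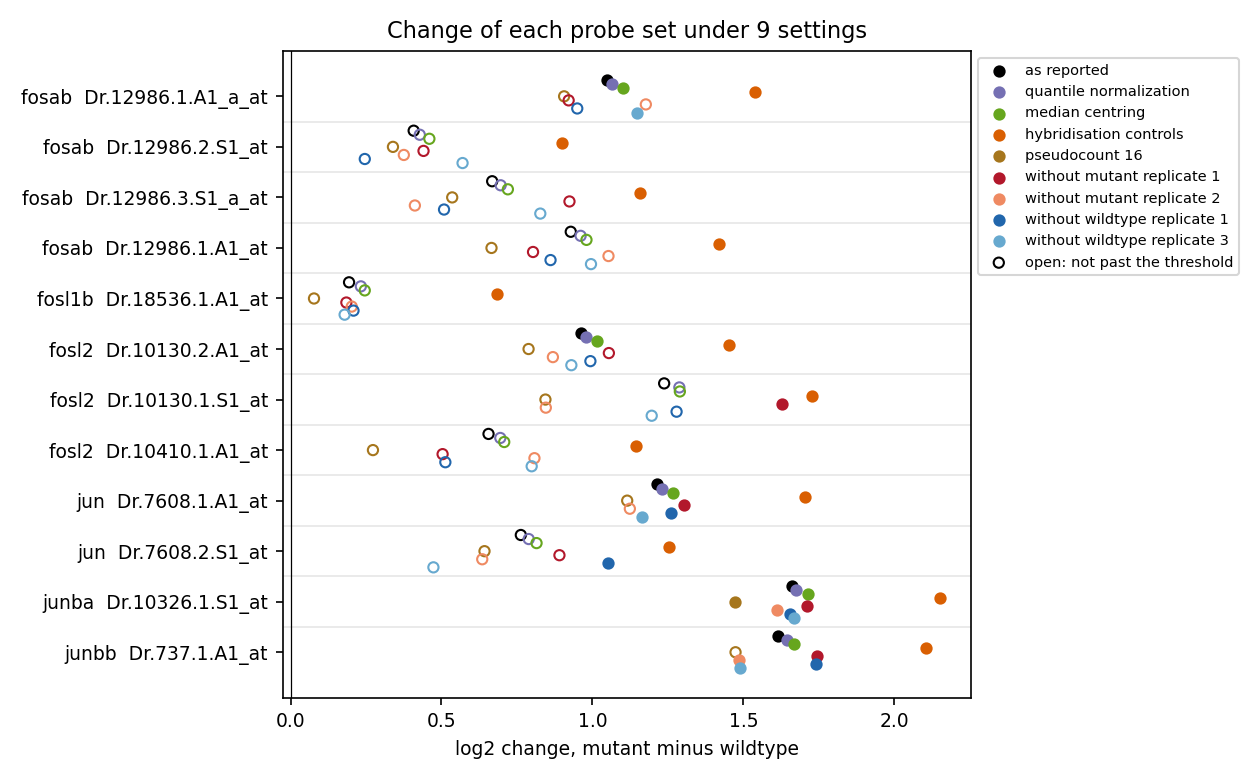
Log2 change (mutant minus wildtype) of the 12 probe sets as reported, under 3 other scalings, with a pseudocount of 16 and with each array left out; filled symbols have a limma adjusted p under 0.05. All symbols lie above 0, and junba is filled in each setting shown, while the brightest fosl2 probe set is open in every setting that leaves out an array.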

How the data were processed

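The authors deposited 1 intensity per probe set and array, on a linear scale, and the submitters' processing notes name RMA. RMA corrects background, quantile-normalizes and summarises probes, and its software is not given in the sources read. The 115 array controls were left out, which left 15502 probe sets. No detection calls were used. GEO's platform annotation gave 10795 probe sets a single gene, 135 several and 4572 none. An update by Entrez gene ID changed 0 of the fos and jun symbols.

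The deposited intensities were converted to log2(intensity + 1). The linear model of limma 3.58.1 (R 4.3.3) held only mutant against wildtype, with 2 residual and 4.04 prior degrees of freedom. Tests were two-sided. Ratios compare group means of intensities. The fit was tested on simulated data. The number of arrays limits precision.

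The members and lists were chosen with earlier results of these data known. Named genes were all fos and jun probe sets, uhrf1, the called genes of each list or otherwise the 2 with the smallest p, and the 3 nearest genes of each called probe set, with exceptions marked. The 5 lists held 130 measured genes, 6 of them in more than 1 list. Marker lists were myeloid cells, epidermis, hepatocytes, muscle, neurons, lens and retina, and erythrocytes. Beyond the first 2, the hepatocyte list had 2 of 9 genes called higher (fgb and fgg), and limma called 0 in the last 4, of 9, 9, 8 and 6 genes. At an unadjusted p under 0.05 the hepatocyte list had 4 higher and 2 lower genes, the lower, named after their values were seen, being tfa (log2 change -1.42) and fabp10a (-0.91), the neuron list 1 higher gene and the lens and retina list 1 higher and 6 lower, the muscle and erythrocyte lists none. By smallest p the last 4 lists gave mylz3 and pvalb1 (0.36 and 0.31), elavl4 and snap25b (0.52 and -0.33), gnat2 and crybb1 (-0.76 and -0.80), and hbae3 and slc4a1a (0.32 and -0.23). Alternatives were other scalings, a filter on dim probe sets, another pseudocount, other priors, another threshold and leaving out arrays.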

Additional observations from a re-analysis of the deposited data

How the results depend on the processing

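The trended robust prior, the unmoderated model, the threshold of 0.1 and the filter on dim probe sets cannot move a log2 change. With these settings counted in, all 142 log2 changes of the 12 fos and jun probe sets under the alternatives kept their direction, between 0.08 and 2.15. Their count of calls was 5 as reported, 12 with arrays scaled on the hybridisation controls, 8 with a trended robust prior, 1 with a pseudocount of 16 and 2 to 4 with 1 array left out, the 2 being without mutant replicate 2. The unmoderated model called 0 of the 12, with 7 at an unadjusted p under 0.05. It also called 0 of all probe sets, where 1298 were at an unadjusted p under 0.05. Scaled on the controls, the bZIP relatives had 12 calls, the kinase cascade genes 8, the immediate-early genes 32, the reported targets 19 and the inhibitors 4. With a pseudocount of 16 the bZIP relatives and the reported targets had 1 call each, and the latter had 4 with the trended robust prior. The unmoderated model called 0 in each of the 5 lists, with 3, 2, 12, 7 and 0 genes at an unadjusted p under 0.05 in the order just given. Over all probe sets the count of 233 became 5223, 80, 394, 419 and 154 with the control scaling, the pseudocount of 16, the trended prior, a threshold of 0.1 and without mutant replicate 1. The cause of these changes was not tested. The differences between 2 genes were recomputed with settings chosen after seeing the data. Those of jun kept their sign, while junba minus junbb and fosab minus fosl2, with overlapping groups, moved between -0.09 and 0.18 and between -0.13 and 0.31. No paired analysis was possible because no label pairs a mutant sample with a wildtype sample. Dim signals limit fosl1b and the dimmest fosl2 probe set, and 2 arrays a group limit every value.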

Other observations

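Among the immediate-early genes, 2 that did not pass varied widely between arrays of the same group, and they were chosen after their values were seen. The Krüppel-like factor gene klf2a read 153 on mutant replicate 1 and 33.2 on mutant replicate 2, with 44.0 and 51.1 in the wildtype larvae. The light-responsive clock gene per2 read 113 and 457 on the mutant arrays and 280 and 667 on the wildtype arrays, differences of 2.01 and 1.25 on the log2 scale. For the fos and jun probe sets the widest difference was 0.78 between mutant arrays and 0.58 between wildtype arrays on the log2 scale. Because of how klf2a and per2 were chosen, setting them beside fos and jun does not show whether the latter varied little.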
